A study of Mus musculus with 18 samples.

Results

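The 10 genes described here control the step from G1 into S phase of the cell cycle. They are the D cyclins Ccnd1, Ccnd2 and Ccnd3, their kinases Cdk4 and Cdk6, the kinase inhibitors Cdkn1b, Cdkn1c, Cdkn2a and Cdkn2c, and the retinoblastoma gene Rb1. They were chosen by name, and each was represented by the probe set (the group of probes read as 1 value) that listed this gene alone and had the highest mean over 18 arrays. They are 10 of 22180 genes with such a probe set. All 10 were among the 19016 genes tested, which had to lie above the 25th percentile of their array on at least 3 arrays, and all 10 lay above it on 18 arrays. RNA came from neurospheres of female mice, balls of neural stem and progenitor cells that grow in suspension, and was read on Affymetrix gene arrays, 1 per sample. There were 6 groups of 3 arrays. Wild type, Pcdh19 knockout and mosaic cultures were each read at day 0, as neurospheres, and at day 4 of differentiation. Mosaic cultures combined cells of both genotypes, in proportions not given in the sources used here. Pcdh19 is an X-linked gene for an adhesion protein, and the design asks how its loss, and mixing of both genotypes, bear on differentiation. The replicates are described as technical, so the p-values measure only the spread between these samples and not that between animals or separate cultures.

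D cyclins accumulate when growth factors signal and bind the kinases Cdk4 and Cdk6. The active pair phosphorylates the protein of Rb1, which then releases the E2F transcription factors that drive the genes of DNA replication. Inhibitors of the INK4 family, to which the products of Cdkn2a and Cdkn2c belong, bind Cdk4 and Cdk6 directly, whereas those of the Cip/Kip family, from Cdkn1b and Cdkn1c, bind cyclin and kinase complexes more broadly. Cdkn2a also encodes, in another reading frame, a protein that stabilises p53. In the developing brain these genes bear on the length of G1 and on the exit of neural progenitors from the cycle.

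RefSeq promoter windows of mouse assembly GRCm38.p6, each running from 250 bases before to 50 bases after an annotated start, were found for 6 of the 10 genes, 9 windows in all. Those of Cdk6, Cdkn1b and Cdkn2c are shown because these genes fell between day 0 and day 4 in every genotype, and those of Ccnd3 because it is the D cyclin with higher values at day 4. The Cdk6 window lies at chr5:3343643-3343942 on the plus strand and the Cdkn1b window at chr6:134920151-134920450 on the plus strand. The first Cdkn2c window lies at chr4:109666707-109667006 and the second at chr4:109665323-109665622, both on the minus strand. The windows of Ccnd3 lie at chr17:47504801-47505100 and chr17:47593217-47593516, both on the plus strand. Sequences run 5′ to 3′ along the gene, and capitals mark the motifs named after them.
Cdk6: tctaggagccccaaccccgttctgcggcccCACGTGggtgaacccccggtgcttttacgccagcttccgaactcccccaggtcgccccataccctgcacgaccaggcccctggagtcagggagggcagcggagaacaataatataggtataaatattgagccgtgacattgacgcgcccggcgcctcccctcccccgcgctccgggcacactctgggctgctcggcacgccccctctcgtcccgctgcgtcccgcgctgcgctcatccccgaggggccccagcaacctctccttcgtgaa
Cdkn1b: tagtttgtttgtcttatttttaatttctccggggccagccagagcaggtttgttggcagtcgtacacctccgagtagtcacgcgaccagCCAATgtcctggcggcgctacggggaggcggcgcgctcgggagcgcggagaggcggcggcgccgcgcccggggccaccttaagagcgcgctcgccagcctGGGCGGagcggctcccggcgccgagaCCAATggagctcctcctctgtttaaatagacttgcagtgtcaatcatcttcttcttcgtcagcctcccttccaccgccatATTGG
Cdkn2c, first window: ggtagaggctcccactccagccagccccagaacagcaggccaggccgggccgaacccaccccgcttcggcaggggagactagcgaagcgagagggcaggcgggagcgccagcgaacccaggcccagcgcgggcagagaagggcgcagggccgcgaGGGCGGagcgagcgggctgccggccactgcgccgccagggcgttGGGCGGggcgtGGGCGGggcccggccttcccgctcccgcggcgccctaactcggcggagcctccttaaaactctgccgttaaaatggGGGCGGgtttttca
Cdkn2c, second window: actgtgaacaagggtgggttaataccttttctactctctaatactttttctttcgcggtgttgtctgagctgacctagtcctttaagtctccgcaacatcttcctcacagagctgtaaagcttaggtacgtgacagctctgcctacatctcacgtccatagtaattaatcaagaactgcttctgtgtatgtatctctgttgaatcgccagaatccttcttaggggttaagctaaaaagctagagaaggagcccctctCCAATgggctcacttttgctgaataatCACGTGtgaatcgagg
Ccnd3, first window: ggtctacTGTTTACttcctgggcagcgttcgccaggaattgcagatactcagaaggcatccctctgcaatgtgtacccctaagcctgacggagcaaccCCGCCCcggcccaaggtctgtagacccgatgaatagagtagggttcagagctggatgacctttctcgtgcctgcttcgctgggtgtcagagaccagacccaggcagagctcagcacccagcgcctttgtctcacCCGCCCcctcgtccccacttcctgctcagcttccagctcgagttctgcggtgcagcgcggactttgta
Ccnd3, second window: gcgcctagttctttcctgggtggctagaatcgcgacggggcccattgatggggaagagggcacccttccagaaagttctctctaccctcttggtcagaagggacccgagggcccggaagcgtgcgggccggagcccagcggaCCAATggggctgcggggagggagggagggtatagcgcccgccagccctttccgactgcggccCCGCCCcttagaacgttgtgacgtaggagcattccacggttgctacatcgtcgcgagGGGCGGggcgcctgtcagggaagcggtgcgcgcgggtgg
On both strands, the windows were searched for E2F sites (TTTGGCGC, TTTCCCGC, TTTCGCGC or TTTGCCGC), the E-box CACGTG, the CCAAT box (CCAAT), the GC box (GGGCGG) and the forkhead motif TGTTTAC. The Cdk6 window held 1 E-box, the motif bound by Myc and related factors, which 7.15% of all 32851 windows of this length held. In the Cdkn1b window there were 3 CCAAT boxes and 1 GC box, motifs found in 37.4% and 35.7% of all windows. The first Cdkn2c window held 4 GC boxes, and the second held 1 CCAAT box and 1 E-box. The first Ccnd3 window held 1 forkhead motif, present in 3.65% of all windows, and 2 GC boxes, and the second held 1 CCAAT box and 2 GC boxes. None of these 6 windows held an E2F site in the letters searched, which 2.26% of all windows did. Of the other windows, that of Cdk4 held 4 E-boxes and 3 GC boxes, 2 of them overlapping, and the first window of Cdkn2a held 1 E2F site and 3 GC boxes. In the second window of Cdkn2a, 1 CCAAT box overlapped 1 GC box. A match describes the letters of a window and does not show that a factor binds there.

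The deposited values are on a log2 scale, with array medians of 4.85 to 4.99. Replicate arrays of one group correlated at r = 0.981 to 0.986, and arrays from different days at 0.955 to 0.972. Pcdh19 had a mean log2 signal of 6.78 ± 0.11 (SD, n = 3) in wild type and 5.51 ± 0.15 (SD, n = 3) in knockout cultures at day 0, and the replicates of the genotypes did not overlap on either day. Neither knockout difference in Pcdh19 passed limma's test over all genes, with adjusted p = 0.855 at day 0 and 0.195 at day 4. Whether its probes lie inside the deleted part of the gene is not given in the sources used here. On mosaic arrays of day 4 its log2 signal was 6.54, 7.09 and 5.52, the widest spread of the 6 groups. The second of these lay above the wild type arrays of day 4, at 6.81 to 6.98. The third lay at the low end of the knockout arrays of day 4, at 5.53 to 5.86. These mosaic arrays thus did not all lie between wild type and knockout.

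Between day 0 and day 4, Ccnd1, Cdk6, Cdkn1b and Cdkn2c fell in all 3 genotypes. A kinase and a cyclin that promote entry into S phase fell together with a pair of inhibitors that oppose it. Ccnd3 rose in wild type and knockout cultures. Ccnd2, Cdk4, Cdkn1c and Cdkn2a each passed the test in 1 genotype, and Rb1 in none. In wild type cultures 1 of the 10 genes rose and 5 fell at an adjusted p under 0.05, where 33.6% of all genes tested were called in either direction, 17.2% higher and 16.3% lower. In knockout cultures 1 rose and 4 fell, against 27.4% of all genes called, 15% higher and 12.4% lower. In mosaic cultures 1 rose and 6 fell, against 26.2% called, 14.4% higher and 11.9% lower. Genes lower in every genotype made up 4 of the 10, against 8.93% of all genes tested. The median log2 fold change of the 10 genes was -0.39 in wild type, -0.35 in knockout cultures and -0.56 in mosaic ones, beside medians over all genes of 0.09, 0.02 and 0.02. Arrays of the 2 days did not overlap for 7 genes in wild type, 6 in knockout cultures and 8 in mosaic ones, against 48.9%, 39.2% and 38.1% of all genes. Of the genes called in wild type, 51.4% were higher in the deposited values, 61.5% after quantile normalization and 44.7% with a common array median, so the balance of higher and lower calls turned with the scaling. In whole cultures, fewer cells of a type and less RNA per cell cannot be told apart.

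**Figure D1:**
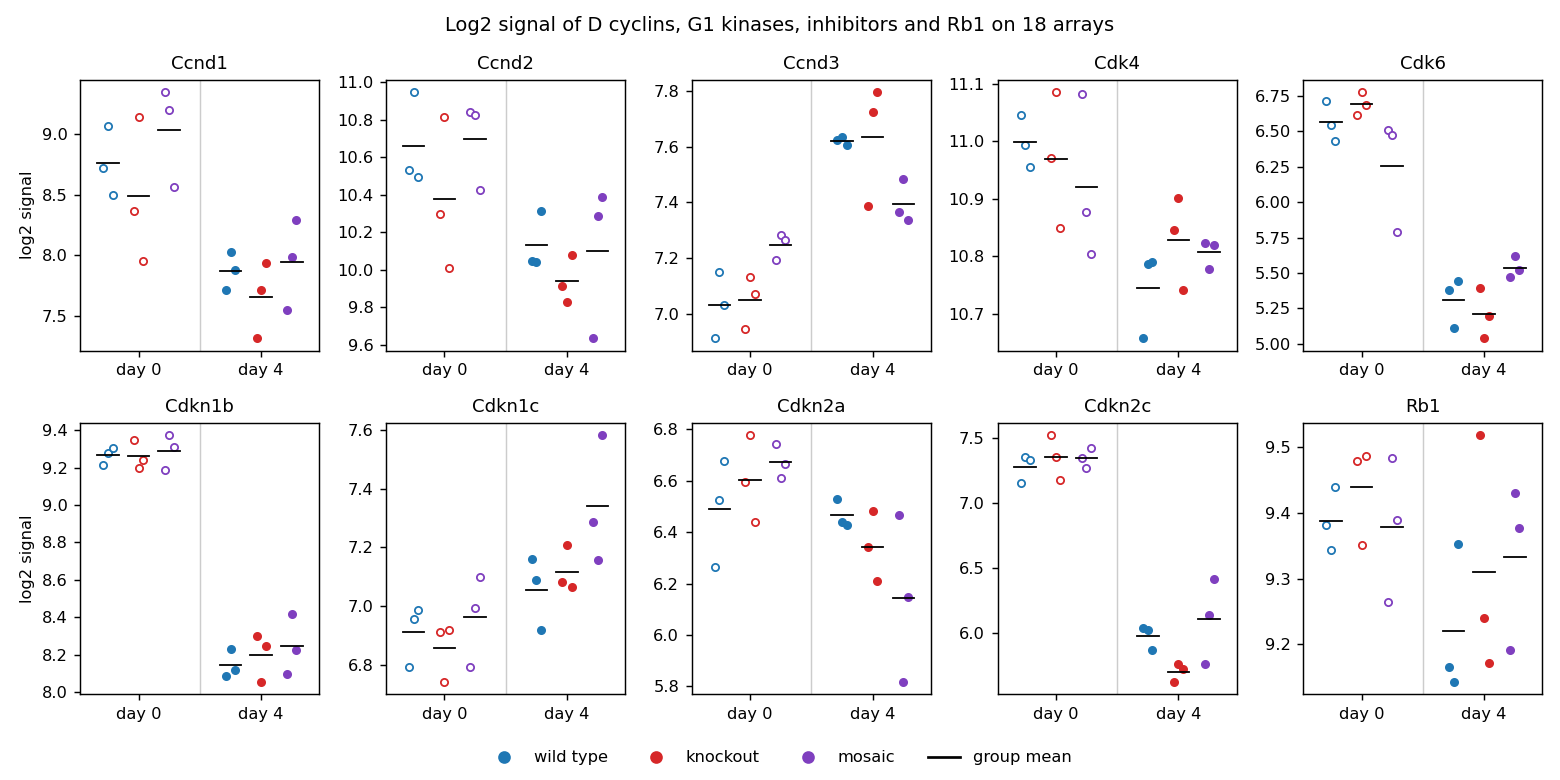
Log2 signal (vertical axis) of each of the 10 genes on 18 arrays, with day 0 as open and day 4 as filled points, colours for the genotypes and a line at each group mean of 3 arrays. The days stand apart without overlap for Ccnd3, Cdk6, Cdkn1b and Cdkn2c over 9 arrays a day, and Rb1 stays between 9.14 and 9.52 throughout.

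**Figure D2:**
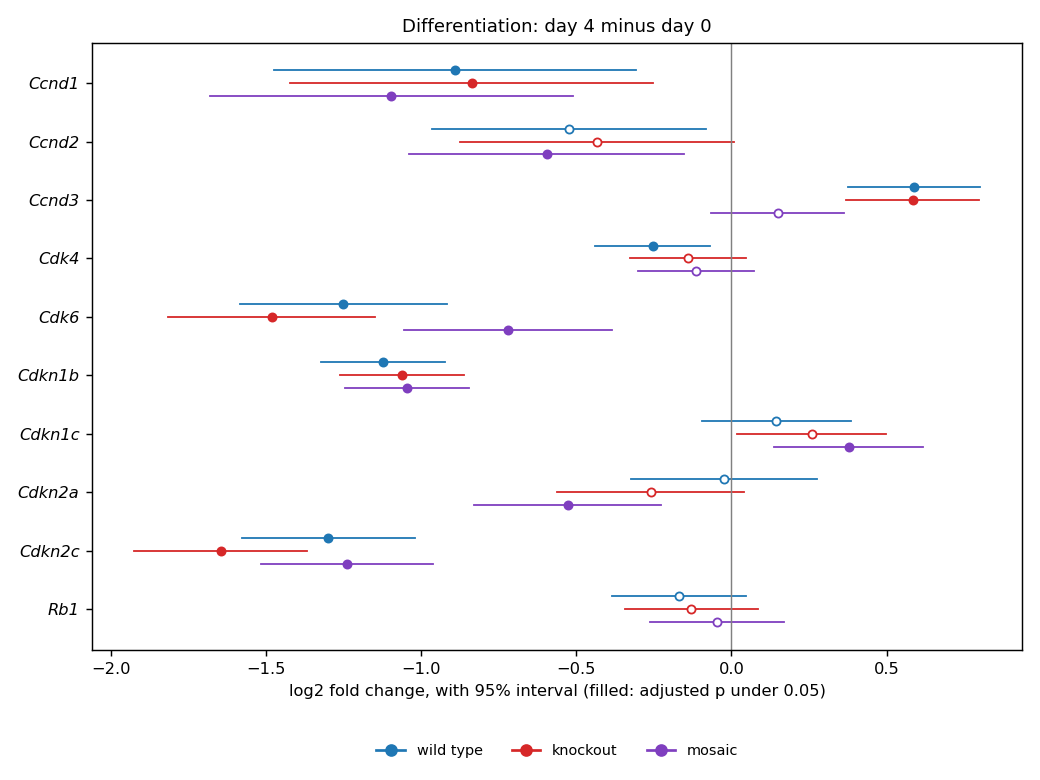
Log2 fold change from day 0 to day 4 (horizontal axis) with its 95% interval for each gene and genotype; filled points have an adjusted p under 0.05. The 3 genotypes lie close together for Cdkn1b, from -1.12 to -1.04, and Ccnd3 is the gene called higher in wild type and knockout.

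Among the D cyclins, Ccnd1, the form most closely tied to growth factor signals, read 8.72, 9.07 and 8.50 (log2 signal) in wild type at day 0 and 7.71, 8.03 and 7.88 at day 4. Knockout arrays read 8.37, 9.15 and 7.95 at day 0 and 7.31, 7.71 and 7.93 at day 4. Mosaic arrays read 9.35, 9.20 and 8.56 at day 0 and 7.55, 7.98 and 8.29 at day 4. Every day 4 array was below every day 0 array of its own genotype, narrowly so in knockout, although the days overlap when genotypes are set together. Ccnd1 fell by 0.89 ± 0.28 (log2, SE) in wild type (adjusted p = 0.02), a 1.85-fold lower signal. It fell by 0.84 in knockout (adjusted p = 0.0316) and by 1.10 in mosaic cultures (adjusted p = 0.00669), with the same SE. The wild type and knockout calls were lost when some single arrays were left out, whereas the mosaic call held in all 27 alternative analyses. Without wild type day 0 replicate 2 the wild type change was -0.74 (adjusted p = 0.0879), and without day 4 replicate 1 it was -0.81 (adjusted p = 0.0705). Without knockout day 0 replicate 2 the knockout change was -0.51 (adjusted p = 0.186), without day 4 replicate 1 it was -0.67 (adjusted p = 0.129), and without day 0 replicate 1 or day 4 replicate 2 the adjusted p was 0.0529 or 0.0641.

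Ccnd2, the D cyclin with a known role in the division of neural progenitors, read 10.84, 10.83 and 10.43 in mosaic cultures at day 0 and 9.63, 10.29 and 10.39 at day 4. Wild type arrays read 10.53, 10.95 and 10.50 at day 0 and 10.05, 10.04 and 10.31 at day 4. The days did not overlap in either genotype, but in mosaic cultures the highest day 4 array lay only just below the lowest day 0 array. Ccnd2 fell by 0.60 ± 0.21 (log2, SE) in mosaic cultures (adjusted p = 0.0448). Its changes of -0.52 in wild type (adjusted p = 0.0641) and -0.43 in knockout (adjusted p = 0.146) did not pass. The side of the threshold on which Ccnd2 lies depends on single arrays. In mosaic cultures the call was kept in 7 of 18 fits that left out 1 array, and without mosaic day 4 replicate 1 the change was -0.36 (adjusted p = 0.228). Without mosaic day 0 replicate 1 or replicate 2 the adjusted p was 0.138 or 0.133. It was 0.0502 to 0.0536 without any one of wild type day 0 replicates 1 and 3, wild type day 4 replicates 1 and 2, knockout day 0 replicate 1 and knockout day 4 replicates 1, 2 and 3. In wild type it passed in 3 fits, those without knockout day 0 replicate 2 (adjusted p = 0.039), knockout day 0 replicate 3 (adjusted p = 0.0495) or mosaic day 4 replicate 1 (adjusted p = 0.0342).

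Ccnd3, the remaining D cyclin, read 6.91, 7.15 and 7.03 in wild type at day 0 and 7.62, 7.64 and 7.60 at day 4. Knockout arrays read 6.95, 7.13 and 7.07 at day 0 and 7.39, 7.72 and 7.80 at day 4. Mosaic arrays read 7.19, 7.28 and 7.26 at day 0 and 7.36, 7.48 and 7.34 at day 4. All 9 arrays of day 4 lay above all 9 of day 0. The mosaic arrays lay above all others at day 0 and below all wild type arrays at day 4, though no genotype difference was called. Ccnd3 rose by 0.59 ± 0.10 (log2, SE) in wild type (adjusted p = 0.000284) and by 0.58 in knockout cultures (adjusted p = 0.000315). The mosaic change of 0.15 did not pass (adjusted p = 0.326). Both calls held in all 27 alternatives.

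The kinase Cdk4 read 11.05, 10.99 and 10.96 in wild type at day 0 and 10.66, 10.79 and 10.79 at day 4. These groups did not overlap, and their distance was small. Cdk4 fell by 0.25 ± 0.09 (log2, SE) in wild type (adjusted p = 0.0346), a 1.19-fold lower signal. The call was lost after quantile normalization (-0.18, adjusted p = 0.132) and in 5 fits that left out a wild type array. These were day 0 replicates 1, 2 and 3 (adjusted p = 0.101, 0.0742 and 0.0547) and day 4 replicates 1 and 2 (adjusted p = 0.13 and 0.0508). Changes of -0.14 in knockout (adjusted p = 0.282) and -0.11 in mosaic cultures (adjusted p = 0.397) did not pass.

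Cdk6, the other kinase partner of the D cyclins, read 6.71, 6.54 and 6.43 in wild type at day 0 and 5.38, 5.11 and 5.44 at day 4. Knockout arrays read 6.61, 6.78 and 6.69 at day 0 and 5.40, 5.04 and 5.19 at day 4. Mosaic arrays read 6.51, 6.47 and 5.79 at day 0 and 5.47, 5.62 and 5.52 at day 4. The days did not overlap in any genotype, and the third mosaic array of day 0 was the lowest of that day. Cdk6 fell by 1.25 ± 0.16 (log2, SE) in wild type (adjusted p = 1.42e-05), a 2.38-fold lower signal. It fell by 1.48 in knockout (adjusted p = 2.43e-06) and by 0.72 in mosaic cultures (adjusted p = 0.00237). Without mosaic day 0 replicate 3 the mosaic change was -0.96 (adjusted p = 3.57e-05).

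Of the Cip/Kip inhibitors, Cdkn1b, which encodes p27 and is known for holding cells out of S phase, varied little within groups. Wild type arrays read 9.22, 9.28 and 9.31 at day 0 and 8.08, 8.23 and 8.12 at day 4. Knockout arrays read 9.35, 9.20 and 9.24 at day 0 and 8.30, 8.06 and 8.25 at day 4. Mosaic arrays read 9.19, 9.37 and 9.31 at day 0 and 8.10, 8.42 and 8.22 at day 4. The lowest day 0 array, at 9.19, lay well above the highest day 4 array, at 8.42. Cdkn1b fell by 1.12 ± 0.09 (log2, SE) in wild type (adjusted p = 2.12e-07), by 1.06 in knockout cultures (adjusted p = 3.56e-07) and by 1.04 in mosaic ones (adjusted p = 4.62e-07). These are signals 2.18-fold, 2.08-fold and 2.06-fold lower, and all 3 calls held in all 27 alternatives.

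Cdkn1c, the imprinted gene for p57, read 6.80, 6.99 and 7.10 in mosaic cultures at day 0 and 7.29, 7.16 and 7.58 at day 4. The mosaic groups did not overlap, by a narrow margin. Nor did the knockout groups, which reached 6.92 at day 0 and started from 7.07 at day 4. Cdkn1c rose by 0.38 ± 0.11 (log2, SE) in mosaic cultures (adjusted p = 0.0196). Its changes of 0.14 in wild type (adjusted p = 0.34) and 0.26 in knockout (adjusted p = 0.108) did not pass. The mosaic call was lost without day 0 replicate 1 (0.29, adjusted p = 0.102) and without day 4 replicate 3 (0.26, adjusted p = 0.11).

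In the INK4 family, Cdkn2c, which encodes p18, had the largest fall of the 10 genes in each genotype. The next largest were close, with Cdk6 at 1.25 ± 0.16 (log2, SE) in wild type and Ccnd1 at 1.10 ± 0.28 in mosaic cultures. Wild type arrays read 7.15, 7.35 and 7.33 at day 0 and 6.04, 6.03 and 5.87 at day 4. Knockout arrays read 7.52, 7.36 and 7.18 at day 0 and 5.63, 5.76 and 5.73 at day 4. Mosaic arrays read 7.35, 7.27 and 7.42 at day 0 and 5.77, 6.14 and 6.42 at day 4. The days did not overlap in any genotype. At day 4 every knockout array lay below every wild type array and, narrowly, below every mosaic array, though neither difference was called. Cdkn2c fell by 1.30 ± 0.13 (log2, SE) in wild type (adjusted p = 1.51e-06), by 1.65 in knockout cultures (adjusted p = 1.16e-07) and by 1.24 in mosaic ones (adjusted p = 2.26e-06). These are signals 2.46-fold, 3.13-fold and 2.36-fold lower, and the calls held in all 27 alternatives. The summed linear signal of 19 mitosis genes on the mosaic arrays of day 4 was 1258, 2005 and 2706 for replicates 1, 2 and 3. Cdkn2c rose in the same order on these arrays. On wild type arrays of day 4 the sum was 1382, 1624 and 1729, whereas Cdkn2c was lowest in replicate 3. On knockout arrays of day 4 the sum was 1130, 1418 and 1667, with Cdkn2c lowest in replicate 1 and highest in replicate 2. The part of the mitosis signal in the Cdkn2c values was not tested.

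Cdkn2a, the other INK4 gene, read 6.27, 6.52 and 6.68 in wild type at day 0 and 6.53, 6.44 and 6.43 at day 4, which overlap. Mosaic arrays read 6.74, 6.61 and 6.66 at day 0 and 6.47, 5.82 and 6.15 at day 4, which do not. Cdkn2a fell by 0.53 ± 0.14 (log2, SE) in mosaic cultures (adjusted p = 0.0103). The lowest mosaic array carries much of that value, since without day 4 replicate 2 the change was -0.36 (adjusted p = 0.0661). Changes of -0.02 in wild type (adjusted p = 0.912) and -0.26 in knockout (adjusted p = 0.207) did not pass. Which transcripts of this gene the probes read is not given in the sources used here.

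Rb1, the target of the cyclin D kinases, lay between 9.14 and 9.52 on all 18 arrays. Its changes of -0.17 ± 0.10 (log2, SE) in wild type (adjusted p = 0.216), -0.13 in knockout cultures (adjusted p = 0.41) and -0.05 in mosaic ones (adjusted p = 0.803) did not pass. The days overlap, and the 95% interval reaches no lower than -0.38 in wild type. Other probe sets that list Rb1, looked at after their values were seen, did not all read alike. Another probe set listing Rb1 alone lay between 3.54 and 4.55, below the lowest array median of 4.85. At this low signal its changes of 0.21 in wild type, 0.32 in knockout cultures and 0.20 in mosaic ones say little about Rb1. A pair of probe sets lists both Lpar6, a receptor gene, and Rb1, and their signal can be given to neither gene. One of them ran from 8.10 to 8.40 at day 0 and reached no more than 7.69 at day 4, with changes of -1.09, -1.06 and -0.95. The other ran from 6.39 to 6.73 at day 0 and from 5.65 to 6.38 at day 4. In both, the days do not overlap, unlike in the probe set used for Rb1, and no test was made.

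**Figure D3:**
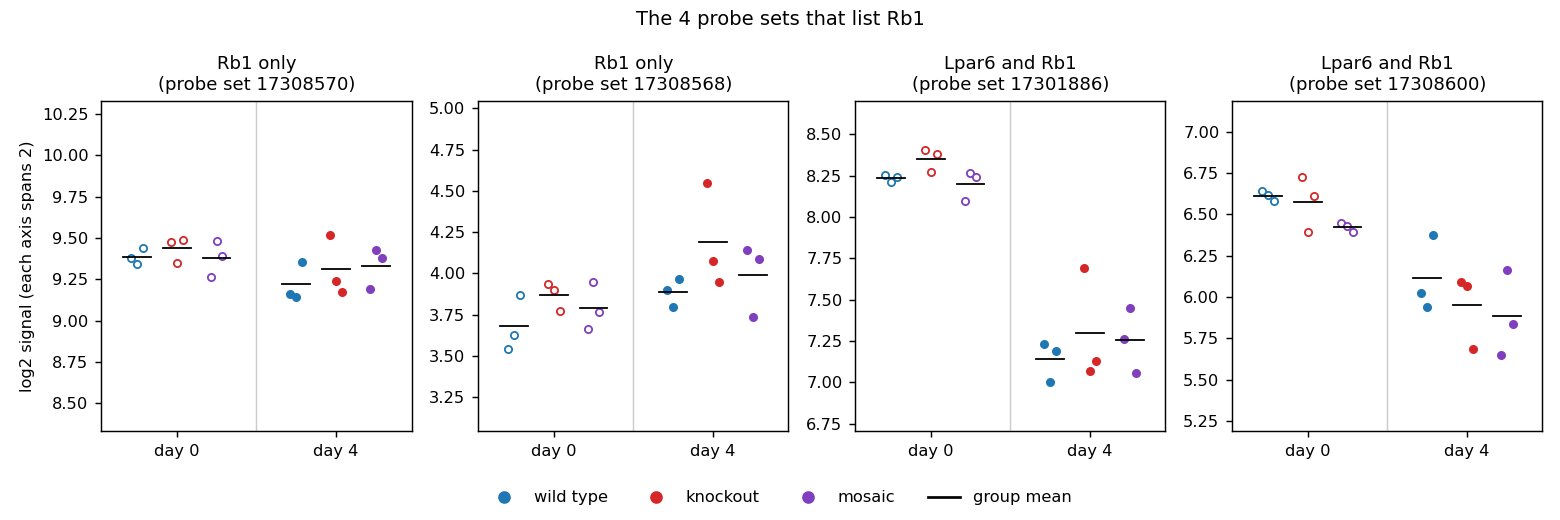
Log2 signal (vertical axis) of the probe set used for Rb1 and of 3 others that list it, with open points for day 0, filled points for day 4, colours for genotypes and lines at group means of 3 arrays. The days overlap in the probe set used, whereas the days stand apart in both probe sets that also list Lpar6.

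None of the 10 genes was called in any comparison between genotypes within a day, or in any difference of the day 0 to day 4 change between genotypes. Comparisons with the same reference share its arrays. In each of these 9 comparisons limma called 0 of 19016 genes (0%) at an adjusted p under 0.05. At an unadjusted p under 0.05, knockout against wild type held 0 of the 10 genes at day 0 and 0 at day 4, beside 3.61% and 12.7% of all genes. Mosaic against wild type held 1 gene at day 0 (Ccnd3) and 3 at day 4 (Ccnd3, Cdkn1c and Cdkn2a), beside 4.3% and 15.9%. Mosaic against knockout held 1 at day 0 (Cdk6) and 2 at day 4 (Ccnd3 and Cdkn2c), beside 4.24% and 6.07%. For the change from day 0 to day 4, knockout against wild type held 0, mosaic against wild type 3 (Ccnd3, Cdk6 and Cdkn2a) and mosaic against knockout 3 (Ccnd3, Cdk6 and Cdkn2c), beside 9.51%, 12.4% and 4.29% of all genes.

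The 95% intervals given here are for each gene alone and are not adjusted for the number of genes tested. The test over all genes can leave larger differences uncalled. For Pcdh19, knockout minus wild type at day 0 was -1.27 (log2) and did not pass limma's test (adjusted p = 0.855). For Cdkn1b, knockout minus wild type was -0.01 (log2, 95% interval -0.21 to 0.19) at day 0 and 0.06 (-0.14 to 0.26) at day 4. With 1 array left out these ran from -0.05 to 0.03 and from 0.01 to 0.13. For Ccnd1 the same difference was -0.27 (-0.86 to 0.31) at day 0, a much wider interval for a gene whose replicates spread more. It was -0.60 without knockout day 0 replicate 2, -0.01 without knockout day 0 replicate 3 and -0.12 without wild type day 0 replicate 2. The change of Ccnd3 in mosaic minus that in wild type cultures was -0.44 (95% interval -0.74 to -0.14, adjusted p = 0.284), and -0.44 with knockout as the reference (adjusted p = 0.999). For Cdk6, the mosaic change differed from that of wild type by 0.53 (adjusted p = 0.371) and from that of knockout by 0.76 (adjusted p = 0.999). Without mosaic day 0 replicate 3 these differences were 0.30 (adjusted p = 0.544) and 0.53 (adjusted p = 0.999). For Cdkn2c at day 4, mosaic minus knockout was 0.40 (95% interval 0.12 to 0.68, adjusted p = 0.762) and knockout minus wild type was -0.27 (adjusted p = 0.404). Without mosaic day 4 replicate 3 the first of these was 0.25 (adjusted p = 1), and without mosaic day 4 replicate 1 it was 0.57 (adjusted p = 0.0836). Groups did not overlap in either Cdkn2c difference, and neither passed the test over all genes. Within a day, groups of different genotypes stood apart for 0 to 2 of the 10 genes, depending on the comparison. The share over all genes is not given for these comparisons, so such separation, also that of Ccnd3, is only described.

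**Figure D4:**
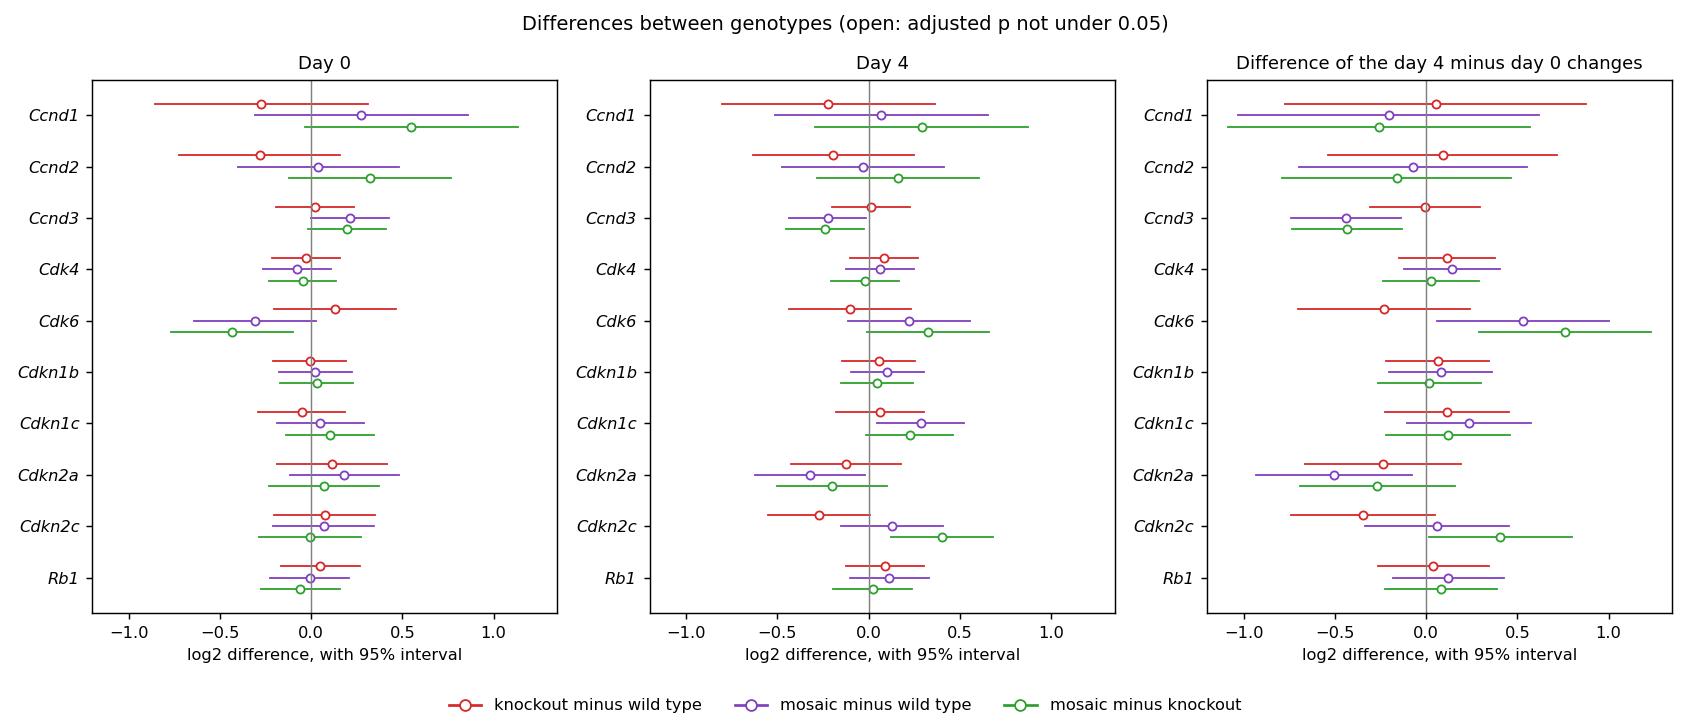
Log2 differences between genotypes (horizontal axis) with 95% intervals for the 10 genes, at day 0, at day 4 and for the change from day 0 to day 4, with open points where the adjusted p was not under 0.05. No point is filled, and the intervals of Ccnd1 are the widest.

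Beyond the 10 genes, 36 other genes of the same step were listed by role, and 35 could be tested. Of these, 3 rose and 13 fell in wild type, 5 rose and 17 fell in knockout, and 4 rose and 17 fell in mosaic cultures. Over all genes tested, 17.2% rose and 16.3% fell in wild type, 15% and 12.4% in knockout, and 14.4% and 11.9% in mosaic cultures. The partner genes that rose do not stand out above these shares, and in knockout their share was close to that of all genes. With quantile normalization 5, 6 and 4 partner genes rose in wild type, knockout and mosaic cultures. Medians were -0.13, -0.27 and -0.22 (log2), beside 0.09, 0.02 and 0.02 over all genes. Ccna2, the cyclin of S phase and G2, fell by 2.40 in wild type, 2.67 in knockout cultures and 2.10 in mosaic ones. Cdkn1a, the gene for the inhibitor p21 and thus the third member of the Cip/Kip family, fell by 1.38, 1.61 and 1.59. E2f8, a repressor of the E2F family, fell by 1.42, 1.59 and 1.29, and Fbxo5, an inhibitor of the anaphase promoting complex, by 1.11 in wild type and 1.20 in knockout. Rbl1, a relative of Rb1, fell by 1.08, 1.19 and 0.79, and Lin9, a subunit of the MuvB complex that regulates cell cycle genes, by 0.94, 1.04 and 0.79. Going the other way, Myc, a transcription factor that promotes growth, rose by 0.52, 0.72 and 0.36, Tfdp1, the partner of E2F factors, by 0.34, 0.58 and 0.63, and Lin37, also of the MuvB complex, by 0.33, 0.34 and 0.31. The mosaic count of called genes was 12 rather than 21 without mosaic day 4 replicate 1 or without day 4 replicate 2.

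Genes of the phases that follow were lower at day 4 or did not pass. Of 24 listed S phase genes 22 were tested, and 12 fell in wild type, 14 in knockout cultures and 15 in mosaic ones. None was higher, and the medians were -0.43, -0.60 and -0.54 (log2). Of all genes tested, 16.3%, 12.4% and 11.9% fell. Rrm2, a subunit of ribonucleotide reductase, fell by 1.56 in wild type, and Pola1, the catalytic subunit of DNA polymerase alpha, by 0.99. Of 20 listed mitosis genes 19 were tested, and all 19 fell in every genotype, with medians of -2.32, -2.55 and -2.14. Aspm, a spindle pole gene, fell by 2.74 in wild type and Ccnb2, a mitotic cyclin, by 2.73. The summed linear signal of the mitosis genes ran from 7214 to 7726 on wild type arrays at day 0 and from 1382 to 1729 at day 4.

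**Figure D5:**
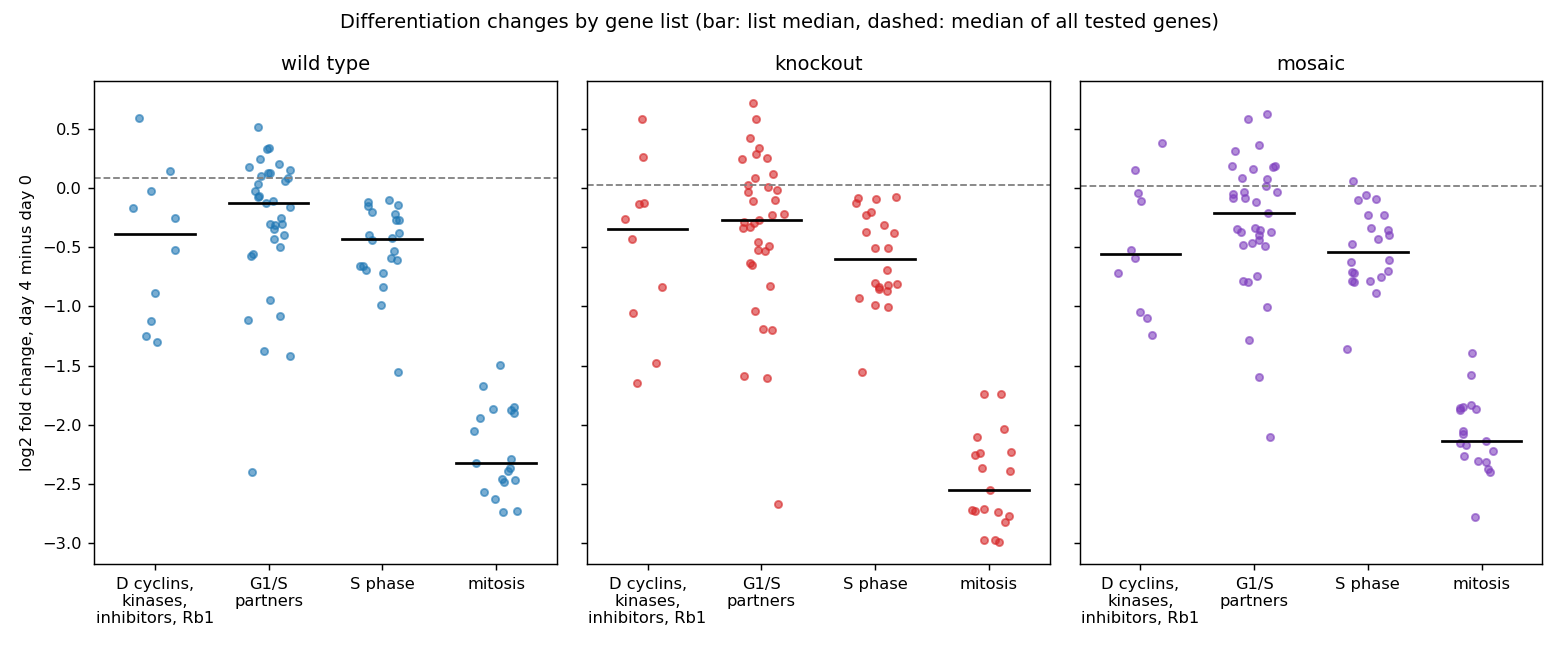
Log2 fold changes from day 0 to day 4 (vertical axis) of the 10 genes and of the lists of G1/S partner, S phase and mitosis genes in each genotype, 1 point per gene with a solid line at the list's median and a dashed line at the median of all genes tested. The mitosis genes lie lowest, with medians of -2.32, -2.55 and -2.14, and the partner genes lie on both sides of 0.

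Markers of the cell types that such cultures can hold were counted as well. Of all genes tested, 17.2% were called higher and 16.3% lower in wild type. These shares were 15% and 12.4% in knockout, and 14.4% and 11.9% in mosaic cultures. The counts of the microglia markers, and of the endothelial and pericyte markers, do not stand out from them. Of 10 neural stem and progenitor markers, 7 fell and 1, Prom1, rose in each genotype. Their summed linear signal was 22877 to 23713 on wild type arrays at day 0 and 16351 to 16611 at day 4. Of 9 astrocyte markers, 7 rose and 2, Gfap and Aldh1l1, fell in each genotype. Gfap, which codes for the intermediate filament by which astrocytes are often recognised, fell by 1.68 in wild type, 1.20 in knockout cultures and 1.11 in mosaic ones. All 9 oligodendrocyte markers tested, of 10 listed, rose in each genotype, with sums of 806 to 839 on wild type arrays at day 0 and 5699 to 8552 at day 4. Of 7 oligodendrocyte progenitor markers 6 rose in each genotype, and 1, Cspg4, fell in knockout. Of 11 neuron markers 8 rose in wild type, 8 in knockout cultures and 6 in mosaic ones, and 1, Elavl4, fell in wild type and mosaic. The sums of 10 microglia markers were 235 to 260 on wild type arrays at day 0 and 268 to 295 at day 4. Of 9 microglia markers tested, Csf1r and Trem2 rose in wild type, P2ry12 fell in knockout, and 0 passed in mosaic cultures, where limma gave 0 at an unadjusted p under 0.05. Sums of 8 endothelial and pericyte markers were 215 to 233 and 364 to 403, and 1 of the 8, Pdgfrb, rose in each genotype. Those of 8 fibroblast markers, which include Pdgfrb, were 313 to 352 and 436 to 502. Of the 7 tested, Col1a2 also rose in wild type, Acta2 fell in knockout and mosaic, and Tagln fell in knockout. The genes of this paragraph are named after their values were seen. The part that these marker shifts have in the changes of the D cyclins, kinases and inhibitors was not tested.

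Likeness was measured for Cdkn2c and Cdk6, the genes of the 10 with the widest range of group means, as Pearson's r of log2 signal over 18 arrays, which share the difference between days. Most alike to Cdkn2c were Fancd2, a DNA repair gene (r = 0.993), Cenpe, a kinetochore motor (r = 0.992), and Kif15, a spindle motor (r = 0.991). Over the 9 arrays of day 0 alone these were 0.70, 0.16 and 0.81, and over the 9 of day 4 they were 0.92, 0.96 and 0.89. Most alike to Cdk6 were Wdr62, a gene for a centrosome protein (r = 0.969), Foxn3 (r = 0.956) and Mapkapk2, a kinase gene (r = 0.953). Within day 0 their r was 0.88, 0.88 and 0.66, and within day 4 it was 0.74, 0.53 and 0.55. These are descriptions of the arrays, and the likeness of Cenpe to Cdkn2c is strong within day 4 and weak within day 0.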

How the data were processed

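The authors deposited normalized values for 41345 probe sets on 18 arrays, and these log2 values were used as deposited. Neither the normalization method nor the base of the logarithm is stated in the sources used here; base 2 was read from the range, 0.722 to 13.97. The number of arrays limits the precision. In the platform annotation 23521 probe sets had 1 symbol and were used, 1814 had several and 16010 none. Entrez identifiers tied 23328 of those used to RefSeq GRCm38.p6, with 0 symbols changed.

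Group means were fitted over the 18 arrays (limma 3.58.1 under R 4.3.3, with statmod 1.5.0). The test was two-sided and moderated by eBayes, with 12 residual and 4.36 prior degrees of freedom, and Benjamini-Hochberg adjustment ran over 19016 genes in each of 12 comparisons. The filter dropped 3164 genes. Errors are SE for fold changes and SD for means. The genes, lists and alternatives were chosen with earlier results of these data known. The text names all 10 genes, Pcdh19, up to 6 called partner genes a direction by their wild type change, up to 2 S phase and 2 mitosis genes, and the 3 genes most alike to each of the 2 genes with the widest range of group means. Alternatives were quantile normalization, equal array medians, other filters (none, or the 50th percentile), averaging the probe sets of a gene, a replicate block, a robust fit with a variance trend, array weights, a fit to only the compared groups, and omission of each array.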

Additional observations from a re-analysis of the deposited data

How the results depend on the processing

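Of 18 changes called for the 10 genes, 12 stayed called in all 27 alternatives, and 0 reversed. The other 6 were those of Ccnd1 in wild type and knockout, Cdk4 in wild type, and Ccnd2, Cdkn1c and Cdkn2a in mosaic cultures, whose values without single arrays stand with each gene. With the compared groups alone, the adjusted p was 0.0736 for Ccnd1 in knockout, 0.0511 for Cdk4, 0.0823 for Ccnd2 and 0.094 for Cdkn1c. With a variance trend it was 0.0573 for Ccnd1 in knockout and 0.0673 for Ccnd2, which also missed the threshold with a common median (0.0692), no filter (0.0548) or array weights (0.0541). Ccnd2 in wild type, not called, passed with the filter at the 50th percentile (0.0487), array weights (0.0403) or the groups alone (0.0259). Of 102 values not called, 40 changed sign in some alternative. Leaving out 1 array gave 4 to 7 of the 10 genes called in wild type, 4 to 5 in knockout and 5 to 7 in mosaic cultures. The partner genes called ranged from 12 to 18, 16 to 23 and 12 to 21, and with the groups compared alone the mosaic count was 13 instead of 21. With the replicate number as a block, 6, 5 and 7 of the 10 genes and 17, 23 and 20 partner genes were called, none of the 18 calls was lost, and 0 of the 10 genes were called between genotypes. The labels do not say that a number pairs samples. Deviations of same-numbered arrays correlated at -0.15 to 0.17, with 4 of 45 pairs above 0.1. By mean correlation with arrays of the other groups, 14 of 18 arrays were closest to their own number. That is a hint from the data and not from the design, and the count to expect without pairing was not computed. Without scanner files, signal over background was not assessed.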

Other observations

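Replicate numbers carried some structure in Ccnd1 and Ccnd3, chosen here after the values were seen. In Ccnd1, replicate 2 lay above its group's mean in 6 of 6 groups, by 0.04 to 0.66 (log2), and replicate 1 in 1 of 6. In Ccnd3, replicate 2 lay above the mean in 6 of 6 groups, by 0.02 to 0.12, and replicate 1 in 1 of 6. Ccnd2 was less regular, with replicate 2 above the mean in 4 of 6 groups, at -0.11 to 0.44, and replicate 1 in 1 of 6.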
